A study of Mus musculus with 2 samples.

Results

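The genes described here are 10 genes by which macrophages carry, take up, bind and store lipid: Apoe, Apoc2, Trem2, Tyrobp, Lpl, Gpnmb, Cd36, Fabp5, Fabp4 and Plin2. They were chosen by symbol, with earlier results of these data known, and all 10 were found among the 32285 gene rows of each single-cell matrix. Their levels are therefore a description, and no test was made on them. B6 mice with AAN CKD, aristolochic acid nephropathy, in which a plant toxin damages the tubules and leaves chronic kidney disease, gave the kidneys at week 2. Cells carrying CD45, a surface marker of leukocytes, were sorted and captured in 1 single-cell library as 2 hashed samples, told apart by antibody-borne barcodes. All cells share the strain, the disease and the time, and untreated kidney was not analysed here, so cell classes were compared within the diseased kidney. The labels do not name the hashed samples as separate animals, so differences between them may be technical, and the title of the sample names 1 mouse and also week 1. The series was designed to place kidney macrophages low in major histocompatibility complex class II (MHC II) and CD4 T cells, and its spatial section was not analysed here.

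ApoE is the main lipid-binding protein of the particles in which macrophages release cholesterol, and ApoC-II is the cofactor that lipoprotein lipase, the product of Lpl, needs to split the triglyceride of lipoproteins. TREM2 is a surface receptor of macrophages that binds lipids and lipoproteins, ApoE among them, and signals through the adaptor DAP12, the product of Tyrobp, which also serves many other myeloid and natural killer cell receptors. CD36 takes up fatty acids and oxidized lipoproteins, FABP4 and FABP5 bind fatty acids in the cytosol, perilipin 2 (Plin2) coats lipid droplets, and GPNMB is a membrane glycoprotein of lysosome-rich, lipid-laden macrophages. Trem2, Apoe, Lpl, Gpnmb, Cd36 and Fabp5 are often named together as markers of lipid-associated macrophages.

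The deposited matrices held 3315 barcodes of hashed sample 1 and 3700 of hashed sample 2, with 20743037 and 25314154 unique molecular identifiers (UMIs, each standing for 1 captured RNA molecule). No barcode was shared between them, and 3089 and 3467 cells were kept, with medians of 5669 and 6568 UMIs. Cells were gated on marker genes, none of which is one of the 10 genes. The C1q-high macrophage gate (at least 100 UMIs of the complement genes C1qa, C1qb and C1qc per 10000 UMIs) held 1063 and 1619 cells, and the C1q-intermediate gate (30 to 100) held 333 and 463. Below that level stood the classical monocyte gate with 77 and 81 cells, the patrolling monocyte gate with 26 and 39, the type 2 dendritic gate with 190 and 358, the type 1 dendritic gate with 38 and 66, and the migratory dendritic gate with 56 and 33. A further 72 and 67 cells without those markers but with at least 2 UMIs of Arg1 and Mmp12, genes of macrophages newly entering injured tissue, made the C1q-low Arg1/Mmp12 gate. T cells, 876 and 433, served as the background, because they are not known as a source of most of these transcripts and show what free RNA in the droplets can add. Adgre1, a macrophage gene not used for the gate, was highest in the C1q-high gate. It encodes F4/80 and had 155.4 and 198.4 CPM (UMIs of a gene scaled by the total UMIs of the gate) in the C1q-high gate and 5.16 and 4.27 CPM in T cells. Below the C1q-high gate Adgre1 did not follow C1q. C1q-intermediate cells had 38.6 and 50.2 CPM, classical monocytes 40.1 and 56.7 CPM and patrolling monocytes 54.4 and 79.5 CPM. The Arg1/Mmp12 gate had only 16.1 and 16.9 CPM of Adgre1, and type 2 dendritic cells 11.6 and 6.81 CPM. Mmp12 itself had 612.0 and 692.9 CPM in type 2 dendritic cells and 140.8 and 192.5 CPM in C1q-high macrophages. The Arg1/Mmp12 gate is therefore named by its genes and not as a macrophage class. Adipoq, the defining gene of fat cells, had 0 UMIs in every gate. Of the 4832 myeloid cells, 22.0% lay within 1.5-fold of the C1q level of 100, so that cut divides a range and does not part cell types. Droplets with kidney epithelial, endothelial or fibroblast markers, 78 and 85, were set aside, and the expression values below are CPM of UMIs summed over the cells of a gate in hashed sample 1 and then in hashed sample 2, unless another unit is named.

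The genes lie far from each other in the genome except for 2 pairs (GRCm38 coordinates). Apoe (chr7:19696109-19699188, minus strand) and Apoc2 (chr7:19671579-19677941, minus strand) are 18.2 kb apart in the apolipoprotein cluster, and Fabp5 (chr3:10012548-10016607, plus strand) and Fabp4 (chr3:10204088-10208576, minus strand) are 187.5 kb apart. Reads of Apoc2 can be shared with Gm44805, an annotated gene that overlaps it on the same strand, so its counts are uncertain to that extent. The others are Trem2 (chr17:48346401-48354147, plus), Tyrobp (chr7:30413760-30417585, plus), Lpl (chr8:68880491-68907448, plus), Gpnmb (chr6:49036546-49070929, plus), Cd36 (chr5:17781690-17888801, minus) and Plin2 (chr4:86648386-86670060, minus). The values are per gene and not per length, so levels are compared between classes for 1 gene and not between genes.

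Promoter windows from RefSeq (GRCm38.p6, the 250 bases upstream of a start site, read in the direction of the gene) were found for 6 of the 10 genes. The 3 shown stand for the patterns below: Apoe and Trem2, which were highest in C1q-high macrophages, and Cd36, which was not. Capitals mark matches to 6 short motifs searched on both strands: GAGGAA for the core bound by PU.1, the transcription factor of the myeloid lineage, TGANTCA for AP-1, GGGCGG for the GC box, CCAAT for the CCAAT box, CACGTG for the E-box and TATAAA for the TATA box.
Apoe, chr7:19699189-19699438, minus strand: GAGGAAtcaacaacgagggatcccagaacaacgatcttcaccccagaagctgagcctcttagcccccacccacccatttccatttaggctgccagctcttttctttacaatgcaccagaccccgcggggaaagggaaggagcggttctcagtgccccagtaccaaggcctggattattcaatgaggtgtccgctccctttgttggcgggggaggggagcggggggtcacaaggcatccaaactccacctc
Trem2, chr17:48346151-48346400, plus strand: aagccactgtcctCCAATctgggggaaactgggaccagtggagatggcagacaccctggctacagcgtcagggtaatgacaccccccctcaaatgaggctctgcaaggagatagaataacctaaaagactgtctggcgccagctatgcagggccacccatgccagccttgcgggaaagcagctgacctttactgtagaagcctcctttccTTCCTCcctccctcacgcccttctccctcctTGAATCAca
Cd36, chr5:17835897-17836146, minus strand: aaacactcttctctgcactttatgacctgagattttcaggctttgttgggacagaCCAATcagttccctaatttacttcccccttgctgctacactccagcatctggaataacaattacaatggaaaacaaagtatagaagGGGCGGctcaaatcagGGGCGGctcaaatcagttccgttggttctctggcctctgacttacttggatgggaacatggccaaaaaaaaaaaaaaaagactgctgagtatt
Apoe has 3 start sites in the table, and the window shown is that of the one farthest upstream. It held GAGGAA at its far end, 250 to 245 bases upstream. Of its other windows, not shown, the next held overlapping TATAAA matches on the 2 strands, 96 to 91 and 100 to 95 bases upstream, and the last held GAGGAA 132 to 127 bases upstream. The Trem2 window held the same core on the opposite strand 40 to 35 bases upstream, an AP-1 match 9 to 3 bases upstream and a CCAAT box 237 to 233 bases upstream. The Cd36 window held 2 GC boxes, 109 to 104 and 93 to 88 bases upstream, and a CCAAT box 195 to 191 bases upstream. It lies within the annotated span of Cd36, while the Apoe and Trem2 windows shown adjoin the upstream ends of their genes. Among 32817 windows of the same length, 23.3% held the PU.1 core, 6.75% AP-1, 32.7% the GC box, 33.8% the CCAAT box, 6.02% the E-box and 12.4% the TATA box. The motifs do not overlap each other in these 3 windows, and the matches are letters only, with no measurement of binding.

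The 10 genes did not share 1 highest gate. By the mean of the hashed samples, the patrolling monocyte gate was highest for Tyrobp, Apoc2, Cd36, Fabp4 and Plin2, the C1q-high macrophage gate for Apoe and Trem2, the C1q-low Arg1/Mmp12 gate for Lpl and Gpnmb, and the migratory dendritic gate for Fabp5. Neighbours in such an order are said to differ here only where both hashed samples of one lay above both of the other and the exact 95% Poisson intervals, which cover counting error only, did not meet.

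**Figure D1:**
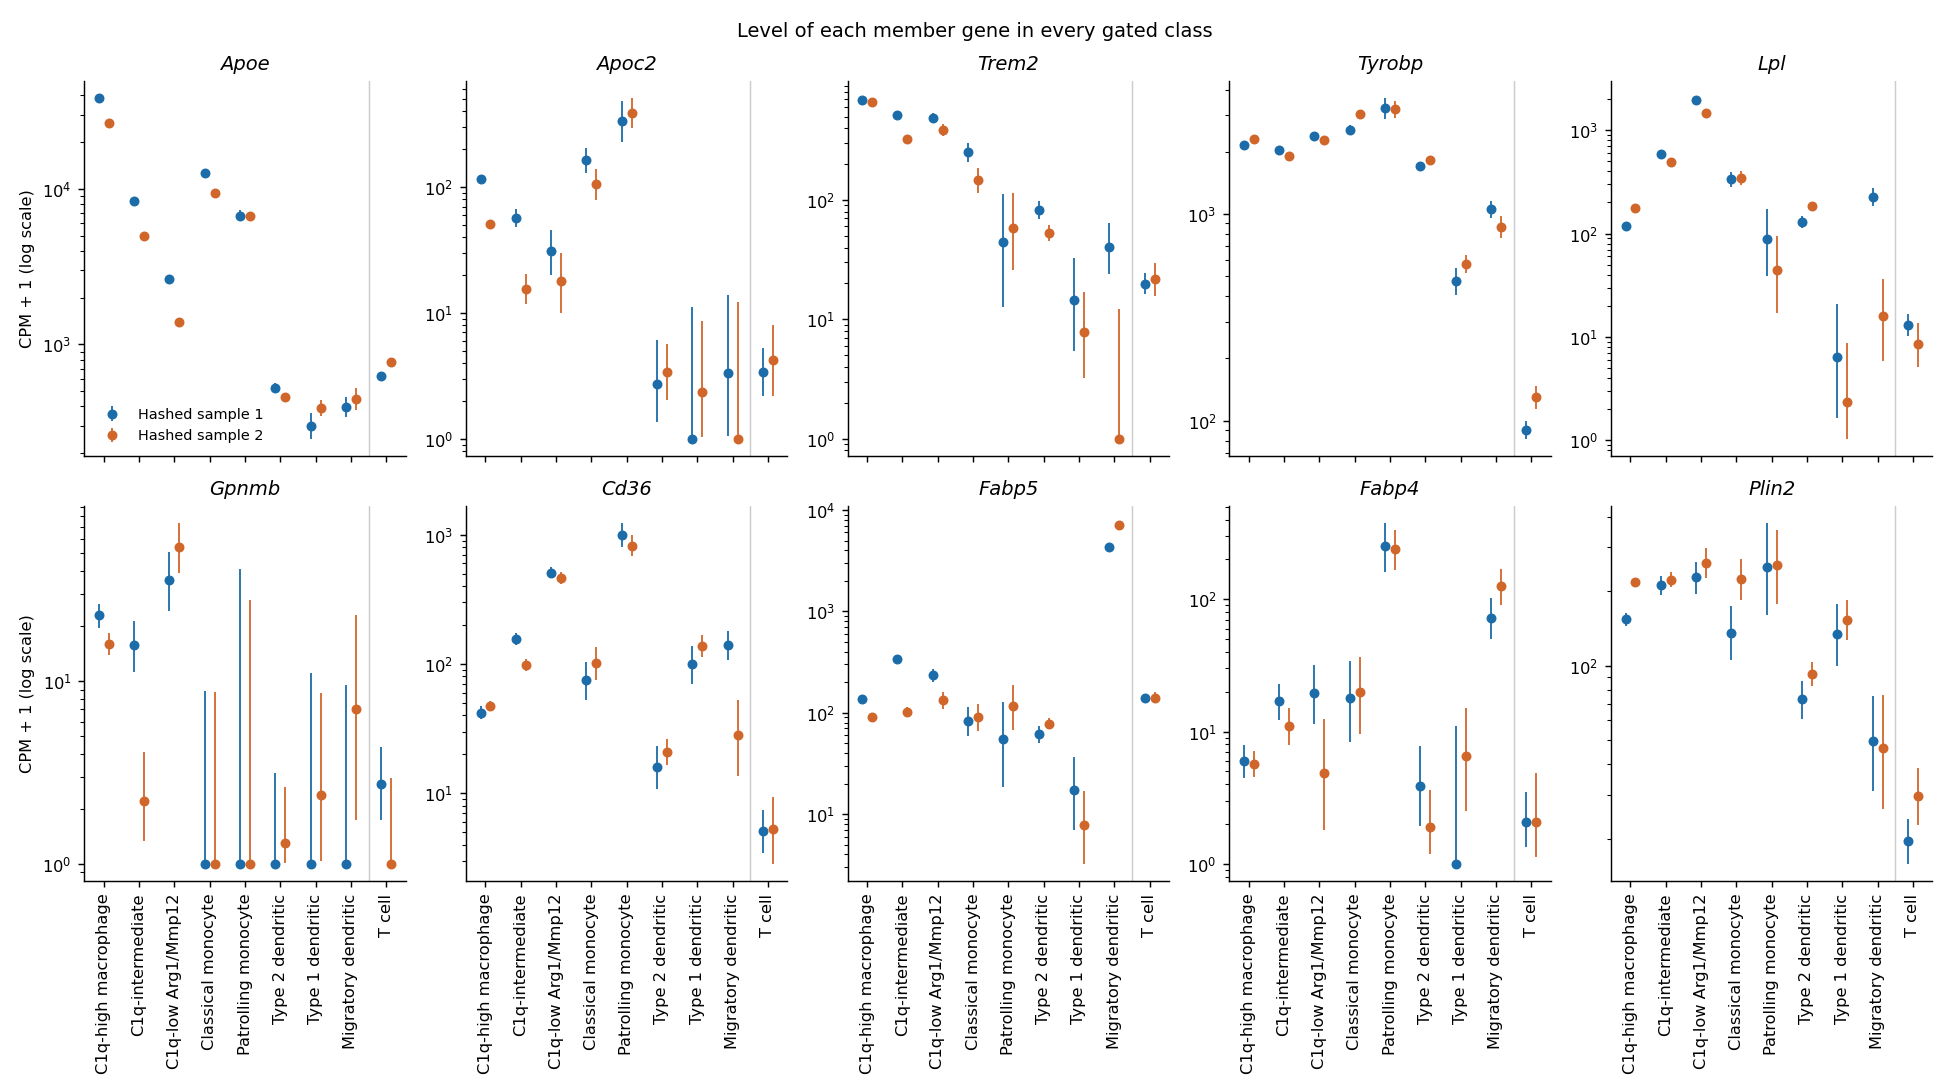
Level of each of the 10 genes (CPM + 1, log axis) in 8 myeloid gates and, right of the grey line, the T cell gate; blue and orange points are hashed samples 1 and 2, bars are exact 95% Poisson intervals, and a point at 1 is a gene with 0 UMIs. Apoe and Trem2 were highest in the C1q-high macrophage gate, Lpl in the C1q-low Arg1/Mmp12 gate, Cd36 and Fabp4 in the patrolling monocyte gate and Fabp5 in the migratory dendritic gate.

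Apoe, the lipid carrier, had 38239.6 and 26541.7 CPM in C1q-high macrophages. It had 12745.6 and 9346.2 CPM in classical monocytes, 6739.6 and 6705.6 CPM in patrolling monocytes and 8351.4 and 5015.3 CPM in C1q-intermediate cells. The macrophages thus stood above classical monocytes, these above the next gates, and patrolling and C1q-intermediate cells overlapped. The C1q-low Arg1/Mmp12 gate had 2618.7 and 1393.6 CPM, and its 5 highest cells held 50.8% and 53.9% of those UMIs. Without them the gate had 1401.8 and 690.1 CPM, close to the 623.1 and 775.2 CPM of T cells in hashed sample 2 and above it in hashed sample 1. Type 2 dendritic cells (527.3 and 455.6 CPM), migratory dendritic cells (395.9 and 444.9 CPM) and type 1 dendritic cells (299.7 and 388.9 CPM) all lay below T cells in CPM. Dendritic cells were deeper, with medians of 8855.5 and 9485.5 UMIs in the type 2 gate against 3902.0 and 3333.0 UMIs in T cells. CPM does not allow for that depth, so whether their Apoe exceeds free RNA was not tested. After every cell was thinned to 1000 UMIs, 96.7% and 94.4% of C1q-high macrophages had an Apoe UMI, and 94.7% and 96.3% of classical monocytes did. The share was 54.2% and 50.7% in the Arg1/Mmp12 gate, at or below the 54.8% and 57.9% of T cells, whose median depths were 10122.0 and 11528.0 UMIs per cell in the Arg1/Mmp12 gate and 3902.0 and 3333.0 UMIs in T cells. The 78 and 85 droplets with kidney markers had 7859.0 and 9224.7 CPM of Apoe, and their part in the levels of the other gates was not tested. Without thinning, the shares were 100% and 97.0% in the Arg1/Mmp12 gate and 93.5% and 92.8% in T cells.

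Among single C1q-high macrophages Apoe varied over more than 10-fold. The median cell had 399.0 and 263.0 Apoe UMIs per 10000, the tenth percentile cell 70.2 and 22.1, and the ninetieth percentile cell 755.1 and 565.4. The 5 highest cells held 2.15% and 1.92% of the Apoe UMIs of the gate, so the level does not rest on a few cells. The median T cell had 6.80 and 8.75 Apoe UMIs per 10000, and the median cell of the Arg1/Mmp12 gate had 5.05 and 3.87.

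**Figure D2:**
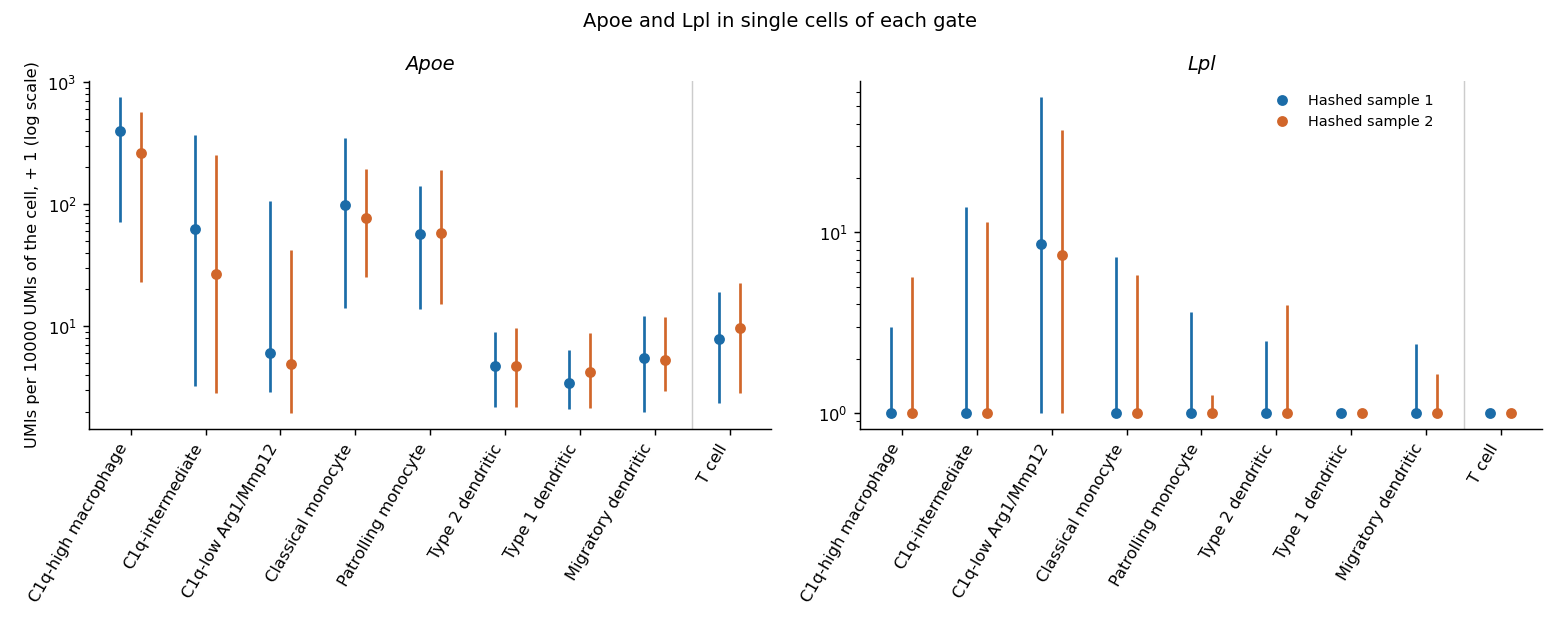
Apoe (left) and Lpl (right) in single cells of each gate, as UMIs per 10000 UMIs of the cell plus 1 on a log axis; points are medians, bars run from the tenth to the ninetieth percentile, and colours are hashed samples 1 and 2. The median of Apoe is highest in the C1q-high macrophage gate, while the C1q-low Arg1/Mmp12 gate is the one gate whose median cell had Lpl UMIs.

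Apoc2, the cofactor of lipoprotein lipase, was detected in monocytes and macrophages and was near 0 in dendritic cells. Patrolling monocytes had 337.0 and 390.2 CPM from 31 and 54 UMIs, of which the 5 highest cells held 74.2% and 55.6%. Classical monocytes had 162.4 and 105 CPM, C1q-high macrophages 114.1 and 49.9 CPM and C1q-intermediate cells 56.2 and 14.6 CPM. The classical and C1q-high gates overlapped, and hashed sample 2 was lower than hashed sample 1 in each of these 3 gates. T cells had 2.37 and 3.20 CPM, and none of the 3 dendritic gates exceeded 2.37 CPM in either hashed sample.

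Trem2, the lipid-sensing receptor, had 693.3 and 660.7 CPM in C1q-high macrophages. It had 487.7 and 381.9 CPM in the C1q-low Arg1/Mmp12 gate and 510.7 and 325.2 CPM in C1q-intermediate cells, which overlapped each other and lay below the C1q-high gate. Classical monocytes had 251.0 and 145.0 CPM. Trem2 thus stayed within the same order of magnitude over these 4 gates, including the Arg1/Mmp12 gate where Apoe was low. Patrolling monocytes had 4 and 8 Trem2 UMIs, which is 43.5 and 57.8 CPM with intervals reaching 111.3 and 113.9 CPM, and overlapped the 18.9 and 20.8 CPM of T cells. In type 2 dendritic cells it had 81.9 and 52.1 CPM. After thinning, 44.0% and 45.0% of C1q-high macrophages, 37.5% and 34.3% of Arg1/Mmp12 cells and 2.43% and 1.89% of T cells had a Trem2 UMI.

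Tyrobp, the adaptor of Trem2 and of many other receptors, was broad. Patrolling monocytes had 3250.2 and 3208.3 CPM, classical monocytes 2552.1 and 3037.7 CPM, Arg1/Mmp12 cells 2373.0 and 2275.5 CPM and C1q-high macrophages 2160.1 and 2312.4 CPM. Each of these neighbours overlapped the next, and with TMM scaling the classical gate was the highest. Type 2 dendritic cells had 1699.7 and 1829.9 CPM, type 1 dendritic cells 474.1 and 571.7 CPM and T cells 89.1 and 128.5 CPM. Patrolling monocytes, where Trem2 overlapped the T cell level, were therefore not low in its adaptor.

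Lpl, the lipase itself, had 1941.1 and 1459.9 CPM in the C1q-low Arg1/Mmp12 gate. C1q-intermediate cells followed with 591.7 and 486.6 CPM, classical monocytes with 333.2 and 342.4 CPM and type 2 dendritic cells with 127.2 and 181.9 CPM, each below the gate before it. C1q-high macrophages, with 116.2 and 175.1 CPM, overlapped type 2 dendritic cells. In the Arg1/Mmp12 gate 58.3% and 47.8% of thinned cells had an Lpl UMI, against 5.87% and 10.8% of C1q-high macrophages and 0.925% and 0.946% of T cells. Classical monocytes owed most of their Lpl to few cells: the 5 highest held 60.8% and 69.3% of the UMIs, and without them the gate had 142.2 and 113.9 CPM. In migratory dendritic cells 1 cell of hashed sample 1 held 51.0% of the Lpl UMIs, and the gate had 226.9 CPM there and 15.1 CPM in hashed sample 2.

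Cd36, the fatty acid and scavenger receptor, had 1000.1 and 823.8 CPM in patrolling monocytes and 507.6 and 461.1 CPM in the Arg1/Mmp12 gate. C1q-intermediate cells had 155.3 and 97.4 CPM, type 1 dendritic cells 98.1 and 137.4 CPM and classical monocytes 73.8 and 100.8 CPM, which overlapped one another. In classical monocytes the 5 highest cells held 62.9% and 70.8% of the Cd36 UMIs, and without them the gate had 29.9 and 31.6 CPM. C1q-high macrophages had only 41.1 and 46.6 CPM, above the 15.1 and 19.8 CPM of type 2 dendritic cells. In patrolling monocytes 53.8% and 53.8% of thinned cells had a Cd36 UMI, against 2.88% and 3.46% of C1q-high macrophages. Pecam1, an endothelial gene, had 10.9 and 0 CPM in the patrolling gate, and Kdr, a defining gene of endothelial cells, which also use Cd36 and Fabp4, had 0 UMIs there in both hashed samples. Both are among the endothelial markers by which droplets were set aside, so their low levels follow in part from the gating. The part of endothelial RNA in the Cd36 and Fabp4 of this gate was not tested.

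Fabp5 had 4303.5 and 7119.0 CPM in migratory dendritic cells, and no other myeloid gate exceeded 337.0 CPM. Of the 56 and 33 migratory cells, 30 and 23 had at least 20 Fabp5 UMIs. T cells had 139.4 and 140.2 CPM, so the 135.2 and 89.2 CPM of C1q-high macrophages and the values of the monocyte gates were not above the T cell gate. T cells are themselves known to use Fabp5, so here the T cell gate is not a measure of free RNA alone. The C1q-intermediate gate had 337.0 CPM in hashed sample 1, of which 1 cell held 24.2%, and 101.7 CPM in hashed sample 2.

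Fabp4, the other fatty acid binding protein, had 250 and 238.5 CPM in patrolling monocytes, from 23 and 33 UMIs. Migratory dendritic cells had 71.8 and 124.1 CPM, with 58.5% of the UMIs of hashed sample 2 in 1 cell, and overlapped the patrolling gate by their counting intervals. C1q-high macrophages had 4.98 and 4.71 CPM and T cells 1.08 and 1.07 CPM. The droplets with kidney markers had 17.1 and 138.5 CPM, and their part in these values was not tested. After thinning, 30.8% and 25.6% of patrolling monocytes and 0.385% and 0.440% of C1q-high macrophages had a Fabp4 UMI.

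Plin2, the lipid droplet coat, was the flattest of the 10 genes. It had 250 and 252.9 CPM in patrolling monocytes, 225.9 and 259.8 CPM in Arg1/Mmp12 cells, 210.7 and 221.7 CPM in C1q-intermediate cells, 152.7 and 217.1 CPM in C1q-high macrophages and 135.0 and 222.7 CPM in classical monocytes. None of these neighbours differed by the rule above. Type 2 dendritic cells had 72.0 and 91.5 CPM, migratory dendritic cells 48.6 and 45.4 CPM and T cells 18.5 and 28.8 CPM. The highest mean of a gate was 10.6-fold the lowest, against 94.1-fold for Apoe and 498.4-fold for Lpl.

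Gpnmb was rare. C1q-high macrophages had 158 and 178 UMIs, 21.9 and 15 CPM, and their single highest cell held 39.2% and 51.1% of them. The Arg1/Mmp12 gate had 28 and 41 UMIs, 34.8 and 53.3 CPM, with 50% and 82.9% in 1 cell. Classical and patrolling monocytes had 0 UMIs, which allows up to 6.33 and 6.30 CPM in the classical gate and up to 32.6 and 21.7 CPM in the patrolling gate, taking 3 counts per gate and hashed sample as the limit. Gpnmb therefore marks single cells and not a gate. Such cells numbered 6 and 5 among C1q-high macrophages when at least 5 Gpnmb UMIs were asked for, and they held 126 and 143 of the UMIs of their gate. Those cells, chosen by Gpnmb, had Fabp5 at 2193.9 and 3325.5 CPM, Apoe at 47328.6 and 66847.5 CPM and Trem2 at 1324.1 and 1250.2 CPM. Summed over the cells, all 3 stood above their gate. So did Cd36 (222.3 and 212.5 CPM), Apoc2 (212.6 and 575.1 CPM) and Plin2 (222.3 and 600.1 CPM). Lpl (67.7 and 175.0 CPM) did not, and Tyrobp and Fabp4 did in hashed sample 2 only. The highest cell, in hashed sample 2, had 16688 UMIs, among them 91 of Gpnmb, 131 of Fabp5, 1969 of Apoe, 27 of Trem2 and 110 of Spp1, the osteopontin gene, and 0 of Lpl, Cd36 and Fabp4. The second, in hashed sample 1, had 22405 UMIs, with 62 of Gpnmb, 91 of Fabp5, 9 of Cd36 and 5 of Lpl. Apoe was not high in every such cell: another in hashed sample 1 had 25 Apoe UMIs among 25207. Such cells are deep, and whether they are doublets that the caller missed was not tested.

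**Figure D3:**
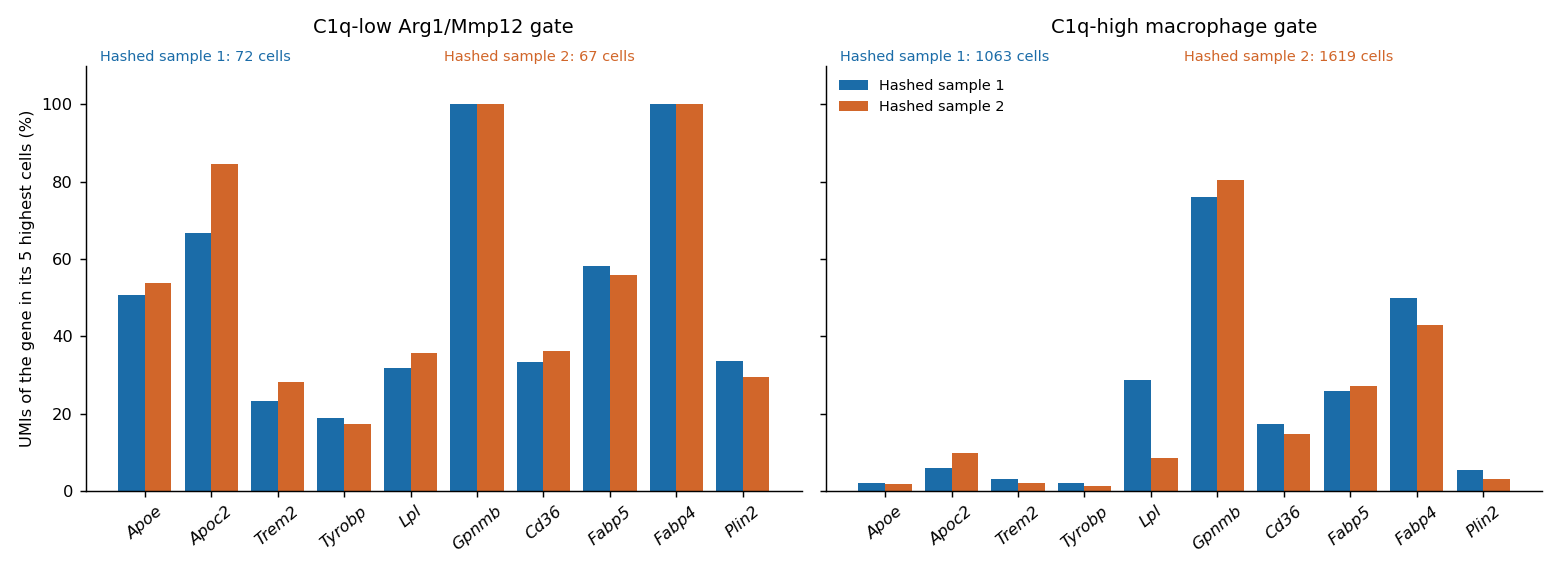
Share of each gene's UMIs held by its 5 highest cells (percent, bars from 0) in the C1q-low Arg1/Mmp12 gate (left, 72 and 67 cells) and the C1q-high macrophage gate (right, 1063 and 1619 cells), hashed sample 1 in blue and 2 in orange. In the macrophage gate Gpnmb stands at 75.9% and 80.3%, against 2.15% and 1.92% for Apoe; a gate of few cells has higher shares for every gene.

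Monocyte and macrophage cells were ordered by their C1q level. From 30 to 60 upwards, Apoe and Trem2 took a course opposite to that of Lpl and Cd36, which were lower at high C1q, though not in every step. Apoe had 5578.8 and 6180.0 CPM in cells with under 10 C1q UMIs per 10000, 5404.9 and 2547.0 CPM at 30 to 60, 23578.5 and 16096.3 CPM at 100 to 150 and 68622.0 and 44708.0 CPM at 300 and above, where 48 and 65 cells stood. From 30 to 60 upwards it was higher in each successive bin in both hashed samples. Below that level it was flat in hashed sample 1 and lower in each successive bin in hashed sample 2. Trem2 had 273.0 and 234.6 CPM in the lowest bin and 470.2 and 293.0 CPM at 10 to 30. It had 477.8 and 245.3 CPM at 30 to 60 and 902.0 and 826.9 CPM in the highest bin. Between the lowest bin and 10 to 30, Trem2 was thus higher in both hashed samples, as were Lpl and Cd36. Lpl was highest at 10 to 30, with 1163.2 and 958.9 CPM, and had 55.1 and 123.2 CPM at 200 to 300. Cd36 had 329.5 and 355.3 CPM at 10 to 30 and 27.4 and 30.1 CPM at 200 to 300. Lpl differed between the hashed samples in the top bin, with 17.1 CPM in hashed sample 1 and 166.0 CPM in hashed sample 2. Tyrobp ranged between 1894.9 and 2772.6 CPM and Plin2 between 123.0 and 263.1 CPM over all bins. The bins hold every cell of the C1q-high, C1q-intermediate, Arg1/Mmp12, monocyte and unassigned gates, so the lowest bins mix monocytes with Arg1/Mmp12 cells.

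**Figure D4:**
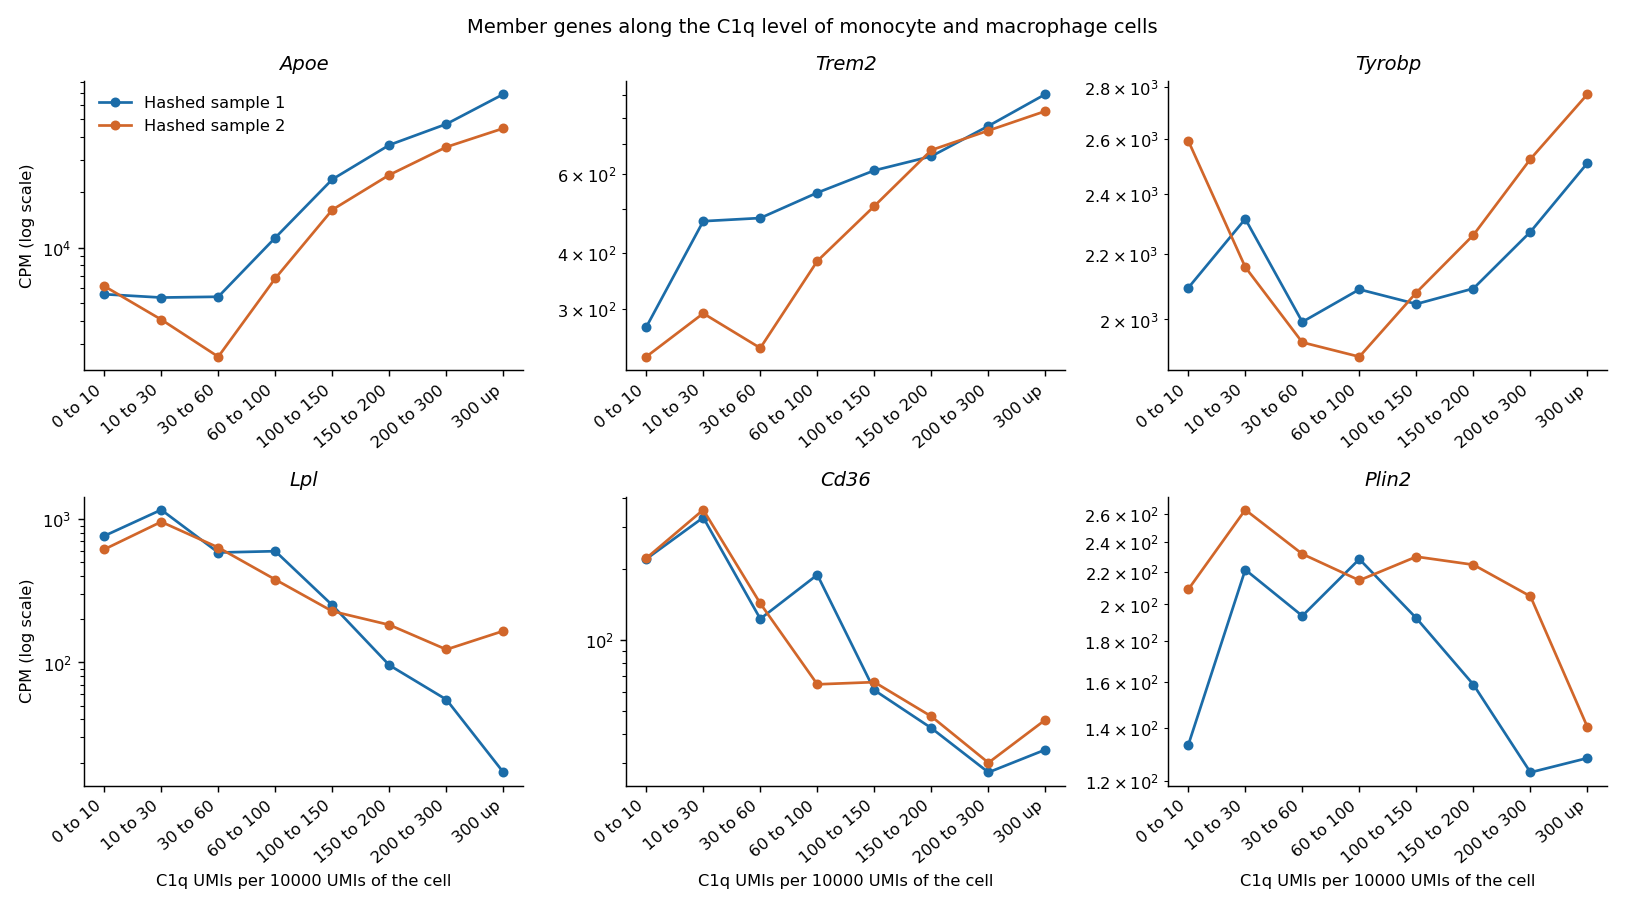
Level (CPM, log axis, with a range of its own in each panel) of 6 genes in 8 bins of the C1q level, in UMIs per 10000 UMIs of the cell; blue and orange lines are hashed samples 1 and 2. From 30 to 60 upwards Apoe and Trem2 are higher in each successive bin, Lpl and Cd36 are highest at 10 to 30, and the panels of Tyrobp and Plin2 span less than 3-fold.

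Gated cells were compared in 9 pairs by 1 rule. A gene was measured when both hashed samples gave it 50 CPM or more in either class of the pair. It was called higher or lower when both hashed samples put it past 1.5-fold in that direction, on the scale log2(CPM + 10), which understates the difference of low genes. Cells are not replicates, so these are counts past a fold and not tests. Several comparisons share a class, such as classical monocytes or C1q-high macrophages, and are not independent of each other. The same rule applied to all genes gives the share stated beside each count, and since the 10 genes were picked with results known, nothing is read from their count against that share.

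In C1q-high macrophages over classical monocytes, the question is which of the genes separate the mature macrophage from the monocyte. Of 8 measured, Apoe and Trem2 were higher, and Lpl and Cd36 were lower, where 7.66% of 2793 genes were higher and 8.34% lower (16.0% in all). Apoe was 3.0-fold and 2.84-fold higher (intervals 2.92 to 3.08 and 2.76 to 2.93). Trem2 was 2.76-fold and 4.56-fold higher (2.30 to 3.34 and 3.60 to 5.86). The log2 ratio was -1.44 and -0.93 for Lpl and -0.71 and -0.97 for Cd36. Both lower calls were lost without the 5 cells highest in that gene in each gate: the mean log2 ratio was then -0.12 for Lpl and 0.21, the other direction, for Cd36. Not counted were Apoc2 (-0.47 and -0.94), Tyrobp (-0.24 and -0.39), Fabp5 (0.65 and -0.02) and Plin2 (0.17 and -0.04), and Gpnmb and Fabp4 were not measured. The median log2 ratio was -0.04 and -0.21 over the 8 genes and -0.11 and -0.05 over all measured genes. Of 5 measured genes of sterol efflux and its nuclear receptors, 3 were higher and none lower: Abca1, the cholesterol exporter (1.53 and 1.67), Npc1, which moves cholesterol out of lysosomes (1.60 and 1.16), and Lipa, the lysosomal acid lipase (0.96 and 1.03). Of 11 measured lipid-associated macrophage genes other than the 10, 6 were higher, with Cd63 at 2.49 and 2.59, Lgmn at 2.11 and 1.92, Grn at 1.57 and 1.74 and Ctsb at 1.58 and 1.56, and Lgals3, the galectin-3 gene, was lower at -0.66 and -0.72. Ms4a7, a relative of the gene that modulates soluble TREM2, was the 1 higher gene of 7 measured in the Trem2 signalling list (4.38 and 4.17), and Stab1 (2.91 and 3.28) and Cd68 (0.65 and 0.82) were the 2 higher of 4 measured scavenger and uptake genes. Among apolipoprotein genes and receptors, the sorting receptor Sorl1 was lower (-0.64 and -1.68). Dissociation stress genes had a median of 12.6 and 13.5 UMIs per 10000 in macrophages and of 40.9 and 58.1 in classical monocytes, and their part in these differences was not tested.

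In C1q-high macrophages over type 2 dendritic cells, 3 of 6 measured genes were higher and none lower, where 13.0% of 2751 genes were higher and 9.67% lower (22.6% in all). Apoe was 72.5-fold and 58.3-fold higher, Trem2 8.47-fold and 12.7-fold higher and Plin2 2.12-fold and 2.37-fold higher. The Apoe of type 2 dendritic cells lay below that of T cells in CPM, and how much of it is free RNA was not tested. Tyrobp (0.34 and 0.34) and Lpl (-0.12 and -0.05) stayed inside 1.5-fold, and Fabp5 (1.04 and 0.18) met it in hashed sample 1 only. Apoc2, Gpnmb, Cd36 and Fabp4 were not measured, Apoc2 because its 114.1 and 49.9 CPM in macrophages fell just short of the minimum in hashed sample 2. Of 4 measured scavenger and fatty acid uptake genes 3 were higher: Stab1 (3.78 and 4.23), Msr1 (3.34 and 3.75) and Cd68 (1.29 and 1.40). In the sterol efflux list 3 of 4 measured were higher, led by Abca1 at 3.0 and 2.80. Of 11 measured lipid-associated genes other than the 10, 6 were higher, led by Lgmn (3.63 and 3.77) and Cd63 (2.70 and 3.81), and 2 lower, Itgax (-2.61 and -2.53) and Lgals3 (-0.67 and -0.59). Dissociation stress genes had 12.6 and 13.5 UMIs per 10000 in macrophages and 35.8 and 42.0 in type 2 dendritic cells, and their part was not tested.

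In classical monocytes over type 2 dendritic cells, 6 of 8 measured genes were higher and none lower, where 10.3% of 2716 genes were higher and 7.66% lower (17.9% in all). The log2 ratios were 4.57 and 4.33 for Apoe, 3.88 and 3.22 for Apoc2, 1.51 and 1.32 for Trem2, 1.32 and 0.88 for Lpl, 1.74 and 1.89 for Cd36 and 0.82 and 1.20 for Plin2. Tyrobp was close to the rule at 0.58 and 0.73, and Fabp5 stood at 0.39 and 0.20. Gpnmb and Fabp4 were not measured. Without the 5 highest cells Lpl was no longer counted, with 142.2 and 113.9 CPM in classical monocytes against 51.2 and 124.6 CPM in type 2 dendritic cells. Cd36 kept its direction then, with a mean log2 ratio of 1.34, but fell under the minimum of 50 CPM. The median was 1.41 and 1.26 over the 8 genes and 0.14 and 0.11 over all measured genes. Of the lipid-associated genes other than the 10, 4 of 11 measured were higher, Lgmn, Ctsl, Ctsd and Ctsb, and 2 lower, Itgax at -2.60 and -3.13 and Axl at -1.08 and -1.23.

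Patrolling over classical monocytes gave the widest spread of calls. Of 9 measured genes, 3 were higher and 2 lower, where 13.4% of 2929 genes were higher and 7.95% lower (21.3% in all). Cd36 was 13.5-fold and 8.17-fold higher (intervals 9.09 to 20.6 and 5.78 to 11.7) and Fabp4 14.8-fold and 12.6-fold higher (6.40 to 38.3 and 5.90 to 30.0). Apoc2 was 2.07-fold and 3.71-fold higher, and without the 5 highest cells its mean log2 ratio of 0.88 no longer met the rule in both. Trem2 (-2.29 and -1.19) and Lpl (-1.82 and -2.72) were lower, Lpl on 8 and 6 UMIs in patrolling monocytes. Apoe, at -0.92 and -0.48, met the fold in hashed sample 1 only, but was counted as lower with TMM scaling, with at least 2000 UMIs per cell, with Leiden clusters and without the 5 highest cells. Plin2 (0.84 and 0.18), Tyrobp (0.35 and 0.08) and Fabp5 (-0.52 and 0.32) were not counted, and Gpnmb had 0 UMIs in both gates. Of 11 measured lipid-associated genes other than the 10, 3 were higher, Cd9 (1.71 and 2.31), Ctsb (1.10 and 0.63) and Itgax (0.73 and 0.84), and 4 were lower, Ctsl (-2.66 and -1.13), Ctsd (-0.94 and -2.04), Cd63 (-0.97 and -1.83) and Axl (-0.82 and -1.86). Among other genes of the pathways, Abcg1, a sterol exporter (1.20 and 0.68), and Acsl1, which activates fatty acids (0.63 and 1.51), were higher, and the scavenger receptor Msr1 (-2.68 and -1.20), the lysosomal sterol carrier Npc2 (-1.15 and -1.0) and the triglyceride lipase Pnpla2 (-1.54 and -0.99) were lower. By list, 1 of 5 measured scavenger and uptake genes was higher and 1 lower, and 1 of 4 measured sterol genes was higher and 1 lower. Patrolling monocytes were few and shallow, with median depths of 3124.5 and 3162.0 UMIs against 5594.0 and 5506.0 UMIs in classical monocytes. Stress genes had 21.1 and 30.7 UMIs per 10000 in patrolling and 40.9 and 58.1 in classical monocytes, and the part of depth or stress was not tested.

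In C1q-intermediate cells over C1q-high macrophages, 2 of 7 measured genes were higher and 1 lower, where 5.40% of 2723 genes were higher and 5.44% lower (10.8% in all). Lpl was 5.09-fold and 2.78-fold higher, Cd36 3.78-fold and 2.09-fold higher, and Apoe had a log2 ratio of -2.19 and -2.40. Trem2 stood at -0.43 and -1.0 and met the fold in hashed sample 2 only, while Fabp5, at 1.26 and 0.17, met it in hashed sample 1 only. Plin2 (0.44 and 0.03) and Tyrobp (-0.08 and -0.27) were inside it, and Apoc2, Gpnmb and Fabp4 were not measured. Itgax (2.12 and 1.84) and Lgals3 (1.57 and 0.97) were the 2 higher of the 11 measured lipid-associated genes other than the 10, and Lgmn, Cd63, Ctsb and Grn the 4 lower. Abca1 (-1.22 and -1.14), Stab1 (-1.55 and -1.67) and Msr1 (-0.85 and -1.23) were lower, and Furin (0.81 and 1.04) was higher. Stress genes had 24.2 and 31.6 UMIs per 10000 in C1q-intermediate and 12.6 and 13.5 in C1q-high cells, and their part was not tested. The C1q-intermediate gate took cells by C1q level, whatever monocyte or dendritic markers they had. Type 2 dendritic markers had medians of 4.53 and 10.1 UMIs per 10000 there, against 1.49 and 2.74 in C1q-high cells. Classical monocyte markers had 8.63 and 11.3, against 3.01 and 4.82. The part of mixed cell types was not tested.

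Cells with at least 2 UMIs of Arg1 and Mmp12 together, among the C1q-high and C1q-intermediate gates, were set against those with fewer. Of 8 measured genes, Lpl and Cd36 were higher and Apoe lower, where 4.71% of 2719 genes were higher and 5.92% lower (10.6% in all). Lpl had 618.9 and 493.0 CPM in Arg1/Mmp12-positive cells, against 80.5 and 129.1 CPM in negative ones, which is 7.69-fold and 3.82-fold. Cd36 had 167.0 and 112.1 CPM in the positive cells, against 30.4 and 33.0 CPM in the negative. Apoe had 11616.8 and 6330.2 CPM in the positive cells, against 38498.8 and 28924.9 CPM in the negative. Trem2 (-0.05 and -0.59), Tyrobp (0.11 and -0.07), Apoc2 (-0.39 and -0.94), Fabp5 (1.75 and 0.21) and Plin2 (0.53 and 0.28) were not counted, and Gpnmb and Fabp4 were not measured. Of 11 measured lipid-associated genes other than the 10, 4 were higher, Itgax (2.54 and 2.27), Lgals3 (1.90 and 1.51), Cd9 (1.61 and 0.71) and Spp1 (1.52 and 0.60), and Lgmn was lower (-1.07 and -1.57). Ms4a7 (-2.34 and -2.25), Stab1 (-1.69 and -2.18) and Abca1 (-1.29 and -1.80) were lower as well. The positive cells were deeper, with medians of 9605.5 and 9357.0 UMIs against 5841.5 and 6384.0 UMIs in the negative cells, and lower in C1q, with medians of 96.1 and 114.3 per 10000 against 176.2 and 176.8. They also had more UMIs of stress genes, 24.7 and 31.6 per 10000 against 13.2 and 13.2 in the negative cells. The part of depth and stress in these differences was not tested. The 3 calls were kept when the gate was applied after thinning to 2000 UMIs and when only C1q-high cells were used.

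C1q-high macrophages with at least 2 UMIs of Cd163, Lyve1 and Cbr2, genes of long-lived tissue macrophages, were set against the rest. Of 7 measured genes Lpl alone was counted, as lower, where 3.80% of 2712 genes were higher and 2.47% lower (6.27% in all). It had 25.3 and 92.7 CPM in the positive cells, against 128.7 and 186.0 CPM in the negative, a log2 ratio of -1.98 and -0.93. Apoe (0.43 and 0.46) and Trem2 (0.47 and 0.23) were above 0 without meeting the fold, as were Apoc2 (0.13 and 0.14) and Tyrobp (0.06 and 0.03). Fabp5 (-0.01 and -0.30) and Plin2 (-0.43 and 0.05) were not counted, and Gpnmb, Cd36 and Fabp4 were not measured. Stress genes had 7.16 and 7.86 UMIs per 10000 in the positive and 13.5 and 14.2 in the negative cells, and their part was not tested. Stab1 (1.15 and 1.06), Abca1 (0.76 and 1.04), Ctsb (0.91 and 0.76) and Lgmn (0.61 and 0.72) were higher, and Itgax (-2.40 and -1.41), Cd9 (-2.01 and -1.52) and Lgals3 (-1.25 and -1.29) lower. By list these are 1 of 5 measured uptake genes, 1 of 4 sterol genes and, of the 11 lipid-associated genes other than the 10, 2 higher and 3 lower.

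The series was designed to place MHC II-low macrophages. Here C1q-high cells with under 40 MHC II UMIs per 10000, 188 and 621 cells, were set against 875 and 998 MHC II-high cells. That cut was set on RNA after the data were seen, and the labels do not tie it to the cells the series set out to place. None of 7 measured genes was counted, where 2.61% of 2677 genes were higher and 1.61% lower (4.22% in all). Trem2 came nearest, with 949.5 and 817.8 CPM in the MHC II-low subset, against 630.4 and 556.7 CPM in the MHC II-high subset, or 0.58 and 0.55 on the log2 scale. Apoe had 43962.7 and 32629.0 CPM in the MHC II-low subset, against 36834.5 and 22511.0 CPM in the MHC II-high subset (0.26 and 0.54). Apoc2 (0.11 and 0.48), Tyrobp (0.16 and 0.06), Lpl (-0.36 and -0.35), Fabp5 (0.99 and 0.23) and Plin2 (-0.07 and 0.15) were the others, and Cd36 and Fabp4 were not measured. Stress genes had 6.73 and 8.93 UMIs per 10000 in the MHC II-low and 14.5 and 17.9 in the MHC II-high subset, and their part was not tested. Gpnmb, below the minimum of 50 CPM, had 65 and 145 UMIs in the MHC II-low subset, against 93 and 33 UMIs in the more numerous MHC II-high subset, and most of the macrophage UMIs lie in the few cells described above. Of the 11 measured lipid-associated genes other than the 10, 4 were higher, the lysosomal genes Ctsd (1.10 and 0.91), Ctsb (0.90 and 0.88), Cd63 (0.97 and 0.77) and Ctsl (0.82 and 0.79), and Itgax was lower (-1.05 and -1.89). Stab1 (1.27 and 1.43) and Abca1 (0.64 and 0.95) were also higher, 1 of 4 measured genes in each of their lists. With Leiden clusters in place of the gates, or a C1q level of 50, Trem2 met the rule.

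Among C1q-high macrophages, 23 and 117 cycling cells were set against 1040 and 1502 others, and none of 7 measured genes was counted, where 10.6% of 2850 genes were higher and 2.25% lower (12.9% in all). Apoe had 14115.9 and 19693.7 CPM in cycling cells, against 39105.8 and 27404.1 CPM in the others (-1.47 and -0.48), and met the fold in hashed sample 1, whose 23 cycling cells are few. Trem2 had 586.7 and 654.7 CPM in cycling cells, against 697.2 and 661.5 CPM in the others. The remaining measured genes were Apoc2 (-0.62 and -0.42), Tyrobp (-0.64 and -0.36), Lpl (-1.37 and 0.15), Fabp5 (0.40 and -0.10) and Plin2 (0.41 and -0.22), and Gpnmb, Cd36 and Fabp4 were not measured. Cycling cells had medians of 10137.0 and 11289.0 UMIs, against 6297.5 and 6690.0 UMIs in the others, and the part of depth was not tested. Ms4a7 (-1.28 and -0.65), Abca1 (-1.39 and -0.71) and Axl (-0.85 and -0.64) were the counted genes of the lists, all lower. Of the smaller lists, none of the 6 other fatty acid binding proteins was measured in any comparison. Furin, a protease that processes regulators of lipoprotein lipase, was the one counted gene of the lipase list, and Pnpla2 the one counted gene of the droplet list.

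**Figure D5:**
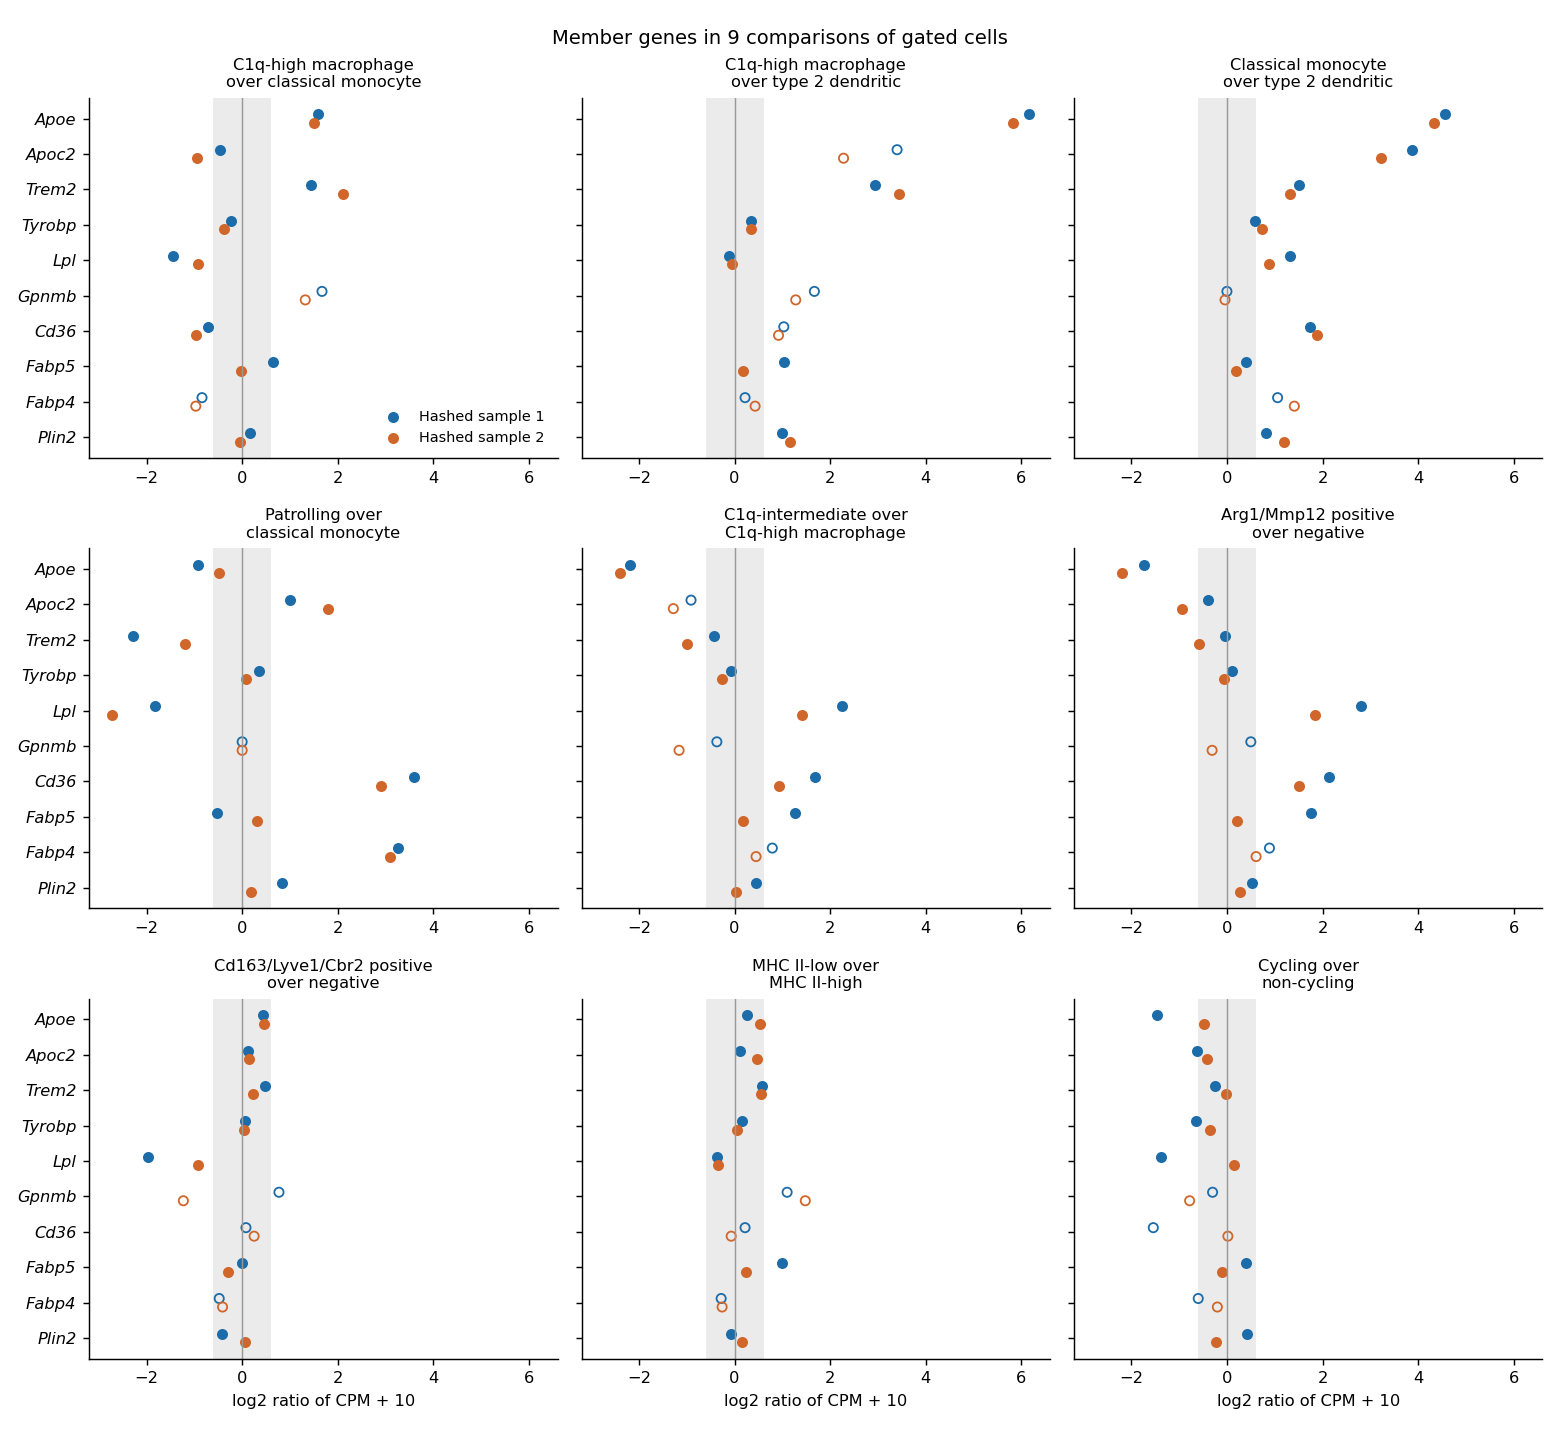
Log2 ratio of CPM + 10 of the 10 genes in the 9 comparisons, hashed sample 1 in blue and 2 in orange; the grey band is 1.5-fold either way, and hollow points are genes below 50 CPM in both classes of a hashed sample. Lpl and Cd36 lie right of the band and Apoe left of it in C1q-intermediate over C1q-high and in Arg1/Mmp12-positive over negative cells, and no gene lies outside it in both hashed samples with filled points in the MHC II panel.

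Within single C1q-high macrophages the genes were only loosely tied. After thinning to 1000 UMIs, 1040 and 1591 cells remained, and of the 90 ordered pairs of genes 16 had a share of cells with the second gene at least 1.5-fold higher among cells with the first, in both hashed samples. The share over other gene pairs was not computed, so nothing is read from this count. Many of the 16 have Gpnmb or Fabp4 second, found in only 9 and 4 cells and in 4 and 7 cells. With Apoe or Tyrobp first, these 2 genes were at 0% in cells without the first gene. Cells with Lpl had Cd36 in 13.1% and 6.98%, against 2.25% and 3.03% of cells without Lpl. Cells with Fabp5 had Gpnmb in 8.45% and 3.75%, against 0.310% and 0.0662% of cells without Fabp5, with 71 and 80 cells that had Fabp5. Cells with Plin2 had Cd36 in 4.38% and 6.57%, against 2.66% and 2.76% of cells without Plin2. Cells with Apoe had Trem2 in 44.5% and 45.8%, against 29.4% and 31.5% of the 34 and 89 cells without Apoe, a ratio that reached 1.5 in 1 hashed sample only. Spearman's rho across cells was at most 0.23 for any pair, the value for Fabp5 and Gpnmb in hashed sample 1. All pairs share the depth of the cell and 1 library, and thinned counts are sparse, so these values describe and do not show a relation.

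Over the 9 gates and 2 hashed samples, 18 points that share 1 library, the genes most like each of the 10 in log2(CPM + 10) were found among 3901 measured genes by Pearson's r. Apoe was most like Glul (0.963), Itgb5 (0.958) and Adgre1 (0.950), Trem2 like Tpp1 (0.927), Ecm1 (0.927) and Ccl2 (0.922), and Tyrobp like Fcer1g (0.975) and Pirb (0.949). Lpl was most like Fn1 (0.942), Clec4n (0.934) and Atp6v0c (0.932), and Cd36 like Gsap (0.894), Mospd2 (0.867) and Cd9 (0.818). Apoc2 was most like Abcd2 (0.958), Mgst1 (0.948) and Arhgef10l (0.943), Plin2 like Creg1 (0.932), Zfp710 (0.904) and Mpeg1 (0.899), and Gpnmb, below the minimum itself, like Dtnbp1 (0.825), Pgrmc2 (0.809) and Prdx1 (0.804). Fabp5 was most like Tmem123 (0.916), a marker of the migratory gate, Ankrd33b (0.908) and Tank (0.906), and Fabp4 like Eno3 (0.933), a marker of the patrolling gate, Myo1g (0.908) and Fam49a (0.906). Among the 10 genes themselves, Apoe had an r of 0.84 with Apoc2, 0.77 with Trem2, 0.44 with Lpl and -0.13 with Fabp5. Trem2 had an r of 0.81 with Lpl, above its value with Apoe, and Tyrobp had 0.81 with Plin2.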

How the data were processed

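The values used are raw UMI counts per gene and barcode, deposited by the authors as 2 filtered matrices, 1 per hashed sample (cellranger 6.1.1, per the file headers). Cell Ranger 6.0, Seurat 4.3.0 and the build mm10 are named in the submitters' processing notes. The read depth was not used; each gate's UMI total sets the precision, and all intervals cover counting error only.

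From these counts, 414 barcodes under 500 UMIs, under 200 genes or over 10% in mitochondrial UMIs were removed. A further 45 barcodes were left out: 40 were called doublets by Scrublet (scanpy 1.11.5) and 6 had weak hashtag calls, with overlap between the 2 groups. Cells were gated on marker sums, UMIs were summed per gate and hashed sample, scaled to CPM and compared as log2(CPM + 10). No p-value was computed, because 1 library with 2 hashed samples gives no replicates that are known to be animals. Exact Poisson, conditional and Clopper-Pearson 95% intervals were used. The fold rule and intervals were tested on simulated data. Those data held counting error alone, with no variation between cells or hashed samples, so they do not test the rule under such variation. Alternatives were TMM scaling, the pseudocount, the minimum level, gate levels, cell filters, Leiden clusters made without the 10 genes, and leaving out a hashed sample.

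The 10 genes and the 8 pathway lists were chosen with earlier results of these data known, and the gate levels were set after the data were seen. All 10 genes are named in each comparison, with examples from each list taken from its 4 higher and 4 lower genes of largest mean log2 ratio, and the 3 genes most like each; a few genes that these rules select are not reported here. Coordinates come from GENCODE on GRCm38 and promoters from RefSeq. Protein sequences and the spatial section were not used here.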

Additional observations from a re-analysis of the deposited data

How the results depend on the processing

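No paired analysis was possible because the results come from no test, so there was no fit to which a block could be added. Each ratio was formed within 1 hashed sample, which both classes share. Over 25 counted values of the 10 genes and 15 alternatives, 321 of 332 recomputed values kept direction and count, 10 lost the count and 1 reversed. A lower minimum level, the smaller pseudocount or leaving out a hashed sample cannot undo a count. Each of these settings kept all 25 values by construction, so that part of the total says nothing about stability. The 10 lost counts were values of Cd36, Lpl and Apoc2, each in a comparison with classical monocytes. The reversal was Cd36 in macrophages over classical monocytes, 0.21 without the 5 highest cells. The cells left out hold most of the Cd36 UMIs of the classical gate. Counts of genes were 6 with a minimum of 10 CPM and with no minimum, against 3, in macrophages over type 2 dendritic cells, since rarer genes enter (Apoc2, Gpnmb and Cd36). In MHC II-low over MHC II-high cells the count was 1 in place of 0 with either lower minimum (Gpnmb), with a C1q level of 50 and with Leiden clusters (Trem2). In cycling cells it was 1 in place of 0 with Leiden clusters (Apoe, lower), and the cause was not tested. With 1 hashed sample left out, the counts ran from 3 to 5 in macrophages over type 2 dendritic cells, from 4 to 5 in C1q-intermediate over C1q-high cells (3 with both), from 4 to 5 in Arg1/Mmp12-positive over negative cells (3 with both), from 0 to 1 in MHC II-low cells and from 0 to 4 in cycling cells. The highest counts came without hashed sample 2, except in Arg1/Mmp12-positive cells, where 5 came without hashed sample 1. A rule asked of 1 hashed sample is easier to meet by construction. Co-detected pairs numbered 29 without thinning, against 16. The gate highest for a gene was the same for 8 of 10 genes with TMM scaling, with Leiden clusters and without the 5 highest cells, and for all 10 under the other alternatives run on levels. With a C1q level of 200 the cycling comparison had too few cells and gave no value. Leaving out the 5 highest cells, gating after thinning, using C1q-high cells only and MHC II levels of 20 and 80 were chosen after seeing the data. Patrolling monocytes, with 26 and 39 cells, limit the depth of every value that uses them.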
